A study of Mus musculus with 8 samples.

Results

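The response of wild-type (WT) mouse peritoneal mesothelial cells (MCs) to mechanical stretch was examined in 4 of the 8 RNAseq libraries of the series, 2 from static and 2 from stretched cultures. These 4 were taken by their labels as the WT cultures, and each of 2 WT mice gave 1 culture of each kind, so that stretched and static cells were compared within an animal. Cells were grown without stretch to confluence and then either stretched or left static for 24 h. The other 4 libraries came in the same arrangement from 2 Cav-1- mice (B6.Cg-CAV1tm1mls/J), which lack caveolin-1, and the WT mice were their littermates. MCs were freed from the parietal peritoneum with trypsin and expanded in medium with serum, so that the cultures were primary and had adapted to plastic before the experiment. The animals' ages were not given in the sources used here, and neither were the amplitude and frequency of stretch for the mouse cells.

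MCs form the single-layered lining of the peritoneal cavity and carry both epithelial features, such as keratins and cell junctions, and mesenchymal ones, such as vimentin. Under inflammation, dialysis or injury they can lose epithelial features and gain matrix-producing ones, a process called mesothelial-to-mesenchymal transition (MMT), in which transforming growth factor-β (TGF-β) and its Smad proteins act as inducers. Stretch is sensed by integrins and the actin cytoskeleton, by ion channels, by the co-activators YAP and TAZ, which bind TEAD factors on DNA, and by caveolae, membrane pits that flatten under tension. The comparison addresses which of these programmes differed between stretched and static WT cells.

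Values are given as TMM-normalized CPM, that is, CPM scaled by the trimmed mean of M-values, and for every gene the value of animal 1 stands before that of animal 2. Differences are stretched minus static on the log2(value + 1) scale, with the SE of the limma fit, and understate the change of genes with low values. The WT libraries held 12195970 and 14237503 reads in static and 15861571 and 19631136 in stretched cultures, and in the Cav-1- animals the stretched libraries were also the deeper ones, so that depth and stretch cannot be told apart by design. When all libraries were thinned to 9777738 reads, 1874 genes reached an unadjusted limma p of at most 0.05 in WT, against 1979 at full depth. Mesothelial markers were present: 19 of 21 were detected, with none at 0 in any WT library, and Calb2 and Cdh1 were not among the genes tested. Markers of other cells were also detected in WT cultures, and their sums differed between the animals: 16 leukocyte markers summed to 461 in static and 487 in stretched cells of animal 1 and to 86.2 and 90.6 in animal 2, whereas 10 fibroblast markers summed to 971 and 511 in animal 1 and to 2101 and 2012 in animal 2. In such bulk cultures, fewer cells of a type and less RNA per cell cannot be told apart.

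No gene passed an adjusted p of 0.05 for stretch in WT cells (0 of 13665 genes tested, 0.0%). The smallest limma adjusted p was 0.144, shared by 59 genes, and the smallest unadjusted p was 1.74e-05. At an unadjusted p of at most 0.05, 1979 genes were counted (14.5%), of which 828 were higher (6.06%) and 1151 lower (8.42%) in stretched cells. DESeq2 on the recovered reads, with the same animal terms, called 158 genes at an adjusted p under 0.05 (1.16%), 76 higher and 82 lower, and edgeR's quasi-likelihood test called 0 by adjusted p and 1891 at an unadjusted p of at most 0.05. The split of the 1979 genes into 41.8% higher and the rest lower turned when the trend of the differences with GC content and transcript length was removed, which gave 1031 higher and 790 lower. With 2 cultures a group, an exact two-sided permutation test of a gene cannot go below p = 0.333, or 0.5 when cultures are kept in pairs. The limma p-values and SE rest on the spread of the WT and Cav-1- pairs together and borrow from other genes. They are therefore not a measure of the WT spread alone, and cover only the cultures used. A fit of the 4 WT libraries alone gave 1670 genes at an unadjusted limma p of at most 0.05, and 0 by adjusted p.

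The response was shared by the animals in part and was larger in animal 1. Differences ran the same way in both animals for 3926 genes that were higher (28.7%) and 4637 that were lower (33.9%), and the Pearson correlation of the animals' differences across genes was 0.296. This correlation is a description over genes, which are not independent replicates, and the points of each animal share a pair of libraries. The SD of the differences over genes was 0.447 in animal 1 and 0.287 in animal 2, and of the 1979 genes 79.7% had the larger difference in animal 1. An absolute difference above 1 was seen for 161 genes.

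**Figure D1:**
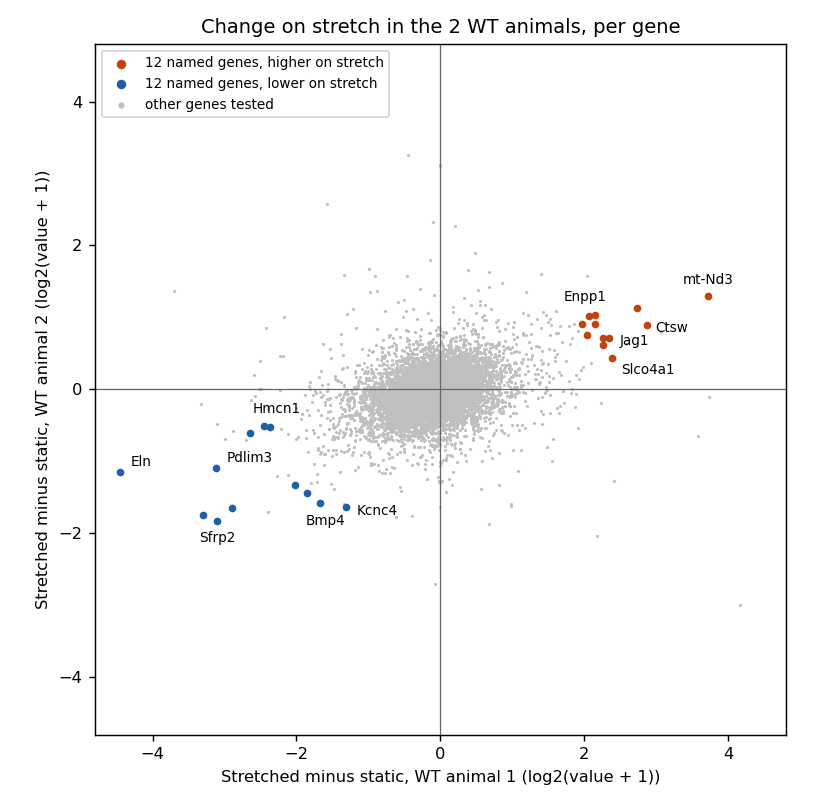
Stretched minus static on the log2(value + 1) scale for every gene tested, with WT animal 1 on the horizontal and WT animal 2 on the vertical axis, and the 24 genes described in the text in colour. The coloured genes lie in the same direction in both animals but farther from 0 along the axis of animal 1 for 23 of 24.

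The 12 genes with the largest positive differences were taken among those at an unadjusted p of at most 0.05. Their stretched cultures both lay above both static cultures and averaged at least 5. They included matrix and surface regulators, a Notch ligand and a serotonin receptor. The largest differences among them were those of mt-Nd3, which is mitochondrially encoded, and Gm13461, a pseudogene. Enpp1 (ENSMUSG00000037370, chr10:24637914-24712159 on GRCm38), which makes pyrophosphate outside the cell and restrains mineralization, measured 6.58 and 28.8 in the static and 30.7 and 59.6 in the stretched cultures. Its difference was 1.54 ± 0.24, with an adjusted p of 0.144. Tnfrsf11b, encoding osteoprotegerin, a decoy receptor for the osteoclast factor RANKL, measured 2.03 and 9.04 in the static and 12.5 and 19.6 in the stretched cultures. Its difference was 1.59 ± 0.28 (adjusted p = 0.148), and like Enpp1 it was higher within each animal although the static culture of animal 2 started higher. Jag1 (ENSMUSG00000027276, chr2:137081456-137116644), a ligand of Notch receptors, measured 29.9 and 20.5 in the static and 156 and 34.3 in the stretched cultures, with a difference of 1.53 ± 0.34 (adjusted p = 0.190). The stretched culture of animal 1 thus stood far above the other 3 cultures, and that of animal 2 was only just above the static culture of animal 1.

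Htr2b, the serotonin 2B receptor, measured 2.03 and 2.50 in the static and 12.4 and 5.61 in the stretched cultures (difference 1.53 ± 0.30). Tfpi2, a secreted inhibitor of serine proteases, measured 4.97 and 11.5 in the static and 22.3 and 22.5 in the stretched cultures (difference 1.44 ± 0.24). In both genes the stretched cultures were clear of the static ones. Cthrc1, a secreted collagen triple helix protein, measured 10.5 and 23.01 in the static and 53.99 and 35.7 in the stretched cultures (difference 1.43 ± 0.35). Has2, which synthesizes hyaluronan at the cell surface, measured 10.9 and 39.8 in the static and 47.9 and 67.9 in the stretched cultures (difference 1.40 ± 0.28). The static Has2 value of animal 2 lay close to the stretched value of animal 1, and the response was 2.04 and 0.76 in the animals. Acsbg1, an acyl-CoA synthetase, measured 0.839 and 2.42 in the static and 7.79 and 4.62 in the stretched cultures, and Slco4a1, an organic anion transporter, 1.05 and 0.969 in the static and 9.71 and 1.66 in the stretched cultures. In Slco4a1 the stretched culture of animal 2 exceeded the static ones by less than 1 normalized CPM. Ctsw, a cysteine protease known from cytotoxic lymphocytes, measured 2.94 and 2.83 in the static and 27.7 and 6.10 in the stretched cultures, and the leukocyte sums given above moved with it only from 461 to 487 and from 86.2 to 90.6, their part in the result not being tested. The largest positive difference was that of mt-Nd3, a mitochondrially encoded subunit of respiratory complex I, which measured 6.02 and 19.8 in the static and 91.8 and 49.96 in the stretched cultures (difference 2.51 ± 0.53). Gm13461, annotated as a processed pseudogene, measured 4.13 and 7.27 in the static and 33.2 and 17.2 in the stretched cultures, and its reads may be shared with a parent copy.

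**Figure D2:**
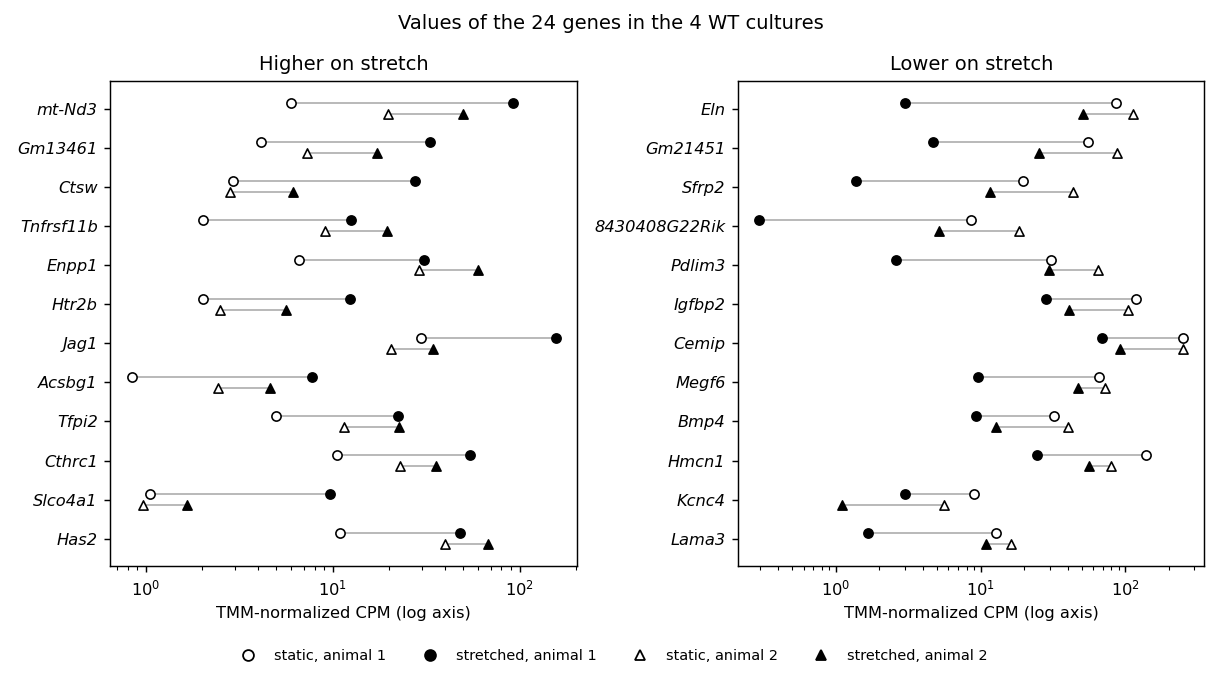
TMM-normalized CPM on a log axis of the 24 genes in the 4 WT cultures, with open symbols for static and filled symbols for stretched cells, circles for animal 1 and triangles for animal 2, and a line joining the cultures of an animal. In each gene both filled symbols lie on the same side of both open ones, and the lines of animal 1 are the longer ones in 23 of the 24 genes.

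The 12 genes with the largest negative differences under the same rule held elastic fibre and basement membrane genes, secreted antagonists and ligands, and cytoskeletal genes. Eln (ENSMUSG00000029675, chr5:134702593-134747323), which encodes elastin, measured 86.8 and 114 in the static and 3.01 and 50.9 in the stretched cultures. Its difference was -2.80 ± 0.67 (adjusted p = 0.217), and the animals differed widely, by -4.45 and -1.15. This SE also draws on the Cav-1- pair, in which Eln had few reads and scarcely varied, and so understates the spread between the WT animals. Sfrp2, a secreted antagonist of Wnt ligands, measured 19.5 and 43.8 in the static and 1.38 and 11.6 in the stretched cultures (difference -2.47 ± 0.38, adjusted p = 0.144). Igfbp2, a binding protein of insulin-like growth factors, measured 119 and 105 in the static and 28.5 and 41.2 in the stretched cultures (difference -1.68 ± 0.25, adjusted p = 0.144). The levels of Igfbp2 were close within each condition and well separated between them. Cemip, which depolymerizes hyaluronan, measured 252 and 252 in the static and 69.2 and 92.4 in the stretched cultures (difference -1.64 ± 0.32, adjusted p = 0.167). Bmp4 (ENSMUSG00000021835, chr14:46383520-46390669), a bone morphogenetic protein, measured 32.1 and 40.3 in the static and 9.37 and 12.8 in the stretched cultures (difference -1.63 ± 0.20, adjusted p = 0.144). Of the 12 genes, Bmp4 and Cemip had among the most even responses, -1.67 and -1.58 for Bmp4 and -1.85 and -1.44 for Cemip.

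Pdlim3, a PDZ and LIM domain protein of actin filaments, measured 30.5 and 64.7 in the static and 2.61 and 29.9 in the stretched cultures. Hmcn1, encoding the extracellular matrix protein hemicentin-1, measured 139 and 80.4 in the static and 24.6 and 56.2 in the stretched cultures, and Lama3, a laminin chain of epithelial basement membranes, 12.9 and 16.2 in the static and 1.68 and 10.97 in the stretched cultures. The animals differed in these 3 genes, with -3.12 and -1.09 for Pdlim3, -2.46 and -0.51 for Hmcn1 and -2.37 and -0.53 for Lama3. Megf6, a protein with EGF-like repeats, measured 65.8 and 72.2 in the static and 9.66 and 46.9 in the stretched cultures. Kcnc4, a voltage-gated potassium channel, measured 8.95 and 5.57 in the static and 3.01 and 1.11 in the stretched cultures, and it was the exception in which animal 2 had the larger difference. The pseudogene Gm21451 and 8430408G22Rik measured 55.1 and 88.01 in the static and 4.68 and 25.5 in the stretched cultures, and 8.60 and 18.3 in the static and 0.296 and 5.17 in the stretched cultures, respectively. Gm21451 had 0 reads in every Cav-1- library, and reads of such a copy may be split with related genes. In Gm21451 and Pdlim3, as in Eln, the Cav-1- pair scarcely varied, so the pooled SE understates the spread between the WT animals. Their p-values come out smaller for the same reason. The limma adjusted p of all 24 genes lay between 0.144 and 0.270. The rule was met by 498 genes in the positive and 688 in the negative direction, and separation alone, without the other criteria, was seen for 1900 genes with both stretched cultures above both static ones (13.9%) and 2344 with both below (17.2%). DESeq2 called 12 of the 24 genes.

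Factors that sense stretch and sterols bind short motifs, so promoter windows were read from RefSeq (GRCm38.p6). Each ran from 250 bases before to 50 bases after the annotated start. They were taken for the first 2 genes of each direction that had an entry, and for Hmgcs1, a cholesterol enzyme described below. Of the 16 cholesterol genes with a window, only Hmgcs1 held the sterol element, so it is not a typical example. The windows of Idi1, Cyp51 and Msmo1 did not hold it, although these genes had smaller p-values (limma adjusted p = 0.148 each, against 0.282 for Hmgcs1). Capitals mark matches, on either strand, to the AP-1 motif TGANTCA, the TEAD motif GGAATG or the sterol element TCACNCCAC. Both genes with a positive difference, Enpp1 at chr10:24712110-24712409 on the minus strand and Htr2b at chr1:86111931-86112230 on the minus strand, are printed first. They are followed by Sfrp2 at chr3:83766071-83766370 on the plus strand, Pdlim3 at chr8:45885237-45885536 on the plus strand and Hmgcs1 at chr13:119690101-119690400 on the plus strand.
Enpp1: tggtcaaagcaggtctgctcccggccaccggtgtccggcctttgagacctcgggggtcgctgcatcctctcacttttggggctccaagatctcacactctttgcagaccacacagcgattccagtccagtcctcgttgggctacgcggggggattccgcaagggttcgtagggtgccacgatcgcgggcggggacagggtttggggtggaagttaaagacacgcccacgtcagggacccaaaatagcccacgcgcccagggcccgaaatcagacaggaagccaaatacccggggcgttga
Htr2b: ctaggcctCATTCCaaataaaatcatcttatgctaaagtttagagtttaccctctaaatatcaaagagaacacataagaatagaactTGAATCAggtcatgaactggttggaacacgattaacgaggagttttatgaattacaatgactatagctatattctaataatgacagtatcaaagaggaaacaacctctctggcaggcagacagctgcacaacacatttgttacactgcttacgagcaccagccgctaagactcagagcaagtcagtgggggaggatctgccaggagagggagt
Sfrp2: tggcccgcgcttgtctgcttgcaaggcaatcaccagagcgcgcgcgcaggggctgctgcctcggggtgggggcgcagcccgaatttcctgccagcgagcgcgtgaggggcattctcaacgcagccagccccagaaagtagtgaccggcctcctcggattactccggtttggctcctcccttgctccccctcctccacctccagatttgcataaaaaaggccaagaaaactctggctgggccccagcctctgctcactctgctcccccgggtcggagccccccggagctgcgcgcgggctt
Pdlim3: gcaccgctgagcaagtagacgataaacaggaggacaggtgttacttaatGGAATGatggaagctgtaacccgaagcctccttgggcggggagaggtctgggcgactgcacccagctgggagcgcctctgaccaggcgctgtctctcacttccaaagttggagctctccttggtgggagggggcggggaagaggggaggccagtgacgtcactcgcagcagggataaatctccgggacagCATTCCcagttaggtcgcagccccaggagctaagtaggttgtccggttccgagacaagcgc
Hmgcs1: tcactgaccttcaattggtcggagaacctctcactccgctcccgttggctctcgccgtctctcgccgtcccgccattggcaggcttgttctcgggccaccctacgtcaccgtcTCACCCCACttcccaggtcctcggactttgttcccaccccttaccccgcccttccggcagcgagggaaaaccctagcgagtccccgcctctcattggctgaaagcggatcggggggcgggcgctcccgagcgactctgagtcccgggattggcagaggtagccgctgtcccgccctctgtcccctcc
Htr2b held TGAATCA starting 163 bases before its start and a TEAD match, read on the other strand as CATTCC, starting 242 bases before it. Pdlim3 held a TEAD match starting 201 bases before the start and another starting 11 bases before it. Hmgcs1 held the sterol element TCACCCCAC starting 137 bases before its start, and Enpp1 and Sfrp2 held none of these motifs or the CArG box of serum response factor in this window. Over all 32544 windows, 7.79% held the AP-1 motif, 14.6% the TEAD motif, 1.24% the sterol element and 1.64% the CArG box. Of the 12 higher genes 6 had a window, and 2 of these held AP-1 and 1 TEAD. Of the 12 lower genes 8 had one, and 1 of these held AP-1 and 2 TEAD. Here a gene counts if any of its windows held the motif, whereas the shares above are of single windows. A match is a description of the letters and not of a bound site.

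The smallest unadjusted p-values belonged to 6 genes with even responses in the animals, named here after their values were seen. Aldh1a3 (ENSMUSG00000015134, chr7:66390890-66427517), an enzyme of retinoic acid synthesis, measured 3.43 and 17.4 in the static and 17.3 and 54.2 in the stretched cultures, with a difference of 1.81 ± 0.16 (adjusted p = 0.144). It was the only one of the 6 that was higher. Fgfr2, a fibroblast growth factor receptor, measured 56.5 and 44.2 in the static and 28.2 and 22.5 in the stretched cultures (difference -0.96 ± 0.10). Tgm2, transglutaminase 2, which crosslinks matrix proteins, measured 400.2 and 67.3 in the static and 235 and 41.6 in the stretched cultures (difference -0.72 ± 0.08). Its static level was several times higher in animal 1, and the response was -0.77 and -0.68 in the animals. Amotl2, an angiomotin that binds YAP and is itself a YAP target, measured 488 and 496 in the static and 292 and 311 in the stretched cultures (difference -0.71 ± 0.08). Fhdc1, a formin of actin and microtubules, measured 146 and 109.6 in the static and 90.2 and 61.3 in the stretched cultures, and Gpc3, a heparan sulfate proteoglycan, 41.97 and 114 in the static and 11.3 and 45.5 in the stretched cultures. All 6 had an adjusted p of 0.144.

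Genes of the TGF-β pathway divided by role. The list of 29 genes, all detected, had 13 members higher in both animals and 10 lower in both, 7 and 6 of them at an unadjusted p of at most 0.05, against 28.7% and 33.9% of all genes in both animals and 6.06% and 8.42% at that p. The shares of members given for the lists below are to be read against the same 28.7% higher and 33.9% lower in both animals, and against 14.5% in either direction at that p. Its median difference was -0.04, and this sign turned under 5 of the 15 other settings, removal of the GC and length trend (0.10) included, so that the list as a whole had no stable direction. Among 10 feedback and target genes, 7 were higher in both animals and 2 lower, 6 of them at an unadjusted p of at most 0.05 and higher, with a median of 0.30 (0.35 in animal 1 and 0.29 in animal 2). Pmepa1, which restrains TGF-β signalling by binding Smads, measured 140.0 and 175 in the static and 292 and 270.2 in the stretched cultures (difference 0.84 ± 0.15, adjusted p = 0.150). Skil, encoding the Smad co-repressor SnoN, measured 108 and 96.9 in the static and 156 and 119.6 in the stretched cultures (difference 0.41 ± 0.09). Smurf2, a ubiquitin ligase of Smads and their receptors, measured 133 and 105 in the static and 190.5 and 131 in the stretched cultures (difference 0.41 ± 0.09). All 3 are negative regulators of the pathway. Ctgf, a target of both Smads and YAP, measured 1078 and 1070.1 in the static and 1180.2 and 1225 in the stretched cultures (difference 0.16 ± 0.10, adjusted p = 0.493).

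The ligand Tgfb1 measured 57.4 and 76.4 in the static and 66.02 and 105 in the stretched cultures, and its difference of 0.33 ± 0.17 had an unadjusted limma p of 0.097. The stretched culture of animal 1 lay below the static culture of animal 2, so the groups overlapped. Of the other ligands, Tgfb2 (-0.40 and -0.63 in the animals) and Tgfb3 (-0.65 and -0.39) were lower and Inhba, which encodes the activin A subunit, was higher (0.53 and 0.63), each at an unadjusted p of at most 0.05. The type I receptor Tgfbr1 measured 29.6 and 57.2 in the static and 34.1 and 65.1 in the stretched cultures (difference 0.19 ± 0.10, adjusted p = 0.426). Its level differed more between the animals than with stretch, as did that of Tgfb1. Tgfbr2 and Tgfbr3 were lower, by -0.40 and -0.26 and by -0.85 and -0.24 in the animals. The latency proteins had 3 of 4 members lower in both animals, with Ltbp4 (-0.94 and -0.27) at an unadjusted p of at most 0.05. Of the Smads, Smad6, an inhibitor of BMP signalling, measured 61.7 and 45.5 in the static and 39.3 and 33.8 in the stretched cultures (difference -0.53 ± 0.11, adjusted p = 0.170), and the other 4 lay between -0.26 and 0.18 in either animal.

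The transcription factors of epithelial-to-mesenchymal transition gave a count near that of all genes. Of 7 factors, 3 were higher in both animals, 0 were lower in both and 4 were not the same in both, and 1, Snai1, reached an unadjusted p of at most 0.05, a share near the 14.5% of all genes. Snai1, the repressor Snail that acts on E-cadherin, measured 25.04 and 70.2 in the static and 37.97 and 78.7 in the stretched cultures, with a difference of 0.37 ± 0.13 and an adjusted p of 0.299. Its stretched culture in animal 1 lay below the static culture in animal 2, so that the increase was seen only within animals.

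Genes of bone morphogenetic protein (BMP) signalling included lower ligands and lower Id genes beside a higher antagonist. Of 13 detected genes of 16, 7 were lower (53.8%) and 5 higher (38.5%) in both animals, with 5 lower and 4 higher at an unadjusted p of at most 0.05, and the median was -0.26 (-0.11 over genes with a mean of at least 5). Beside Bmp4, the ligand Bmp6 measured 21.9 and 13.7 in the static and 10.2 and 8.25 in the stretched cultures (difference -0.85 ± 0.17). Id3, which encodes an inhibitor of DNA binding induced by BMPs, measured 254 and 211 in the static and 189.7 and 130.1 in the stretched cultures (difference -0.55 ± 0.09, adjusted p = 0.148), and Id4 measured 12.4 and 13.4 in the static and 4.59 and 10.3 in the stretched cultures (difference -0.81 ± 0.24). Id1 (-0.17 and -0.66) and Id2 (-0.08 and -0.44) were lower in both animals too. The secreted antagonist Grem1 measured 169 and 125 in the static and 232 and 237 in the stretched cultures (difference 0.68 ± 0.15). Grem1 was thus higher while Bmp4, Bmp6, Id3 and Id4 were lower, in each animal.

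Wnt genes were fewer. Of 18 detected of 23, 5 were higher (27.8%) and 4 lower (22.2%) in both animals, neither share above that of all genes, 2 and 3 of them at an unadjusted p of at most 0.05, with a median of -0.08. The antagonist Sfrp1 measured 38.8 and 193 in the static and 23.1 and 98.9 in the stretched cultures (difference -0.84 ± 0.17), beside Sfrp2 above. Nkd1, a feedback inhibitor of the pathway, measured 8.25 and 10.3 in the static and 4.59 and 5.11 in the stretched cultures (difference -0.81 ± 0.19), and the ligand Wnt2 6.72 and 3.88 in the static and 13.2 and 6.10 in the stretched cultures (difference 0.71 ± 0.17). The Wnt targets Axin2 (0.08 and 0.34 in the animals) and Lef1 (0.09 and 0.53) were detected near the limit and did not reach an unadjusted p of 0.05.

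Collagen genes were lower rather than higher. All 24 were detected, 16 were lower (66.7%) and 4 higher (16.7%) in both animals, 8 and 2 of them at an unadjusted p of at most 0.05, and the median was -0.27 (-0.40 in animal 1 and -0.17 in animal 2). Removal of the GC and length trend brought the median to -0.09. Col3a1, a fibrillar collagen, measured 3101 and 3660.4 in the static and 1549.6 and 1992 in the stretched cultures (difference -0.94 ± 0.27, adjusted p = 0.260). The basement membrane chain Col4a6 measured 121 and 69.5 in the static and 44.7 and 43.6 in the stretched cultures (difference -1.04 ± 0.18, adjusted p = 0.148), and its neighbour Col4a5 459 and 278 in the static and 272 and 215 in the stretched cultures (difference -0.56 ± 0.11). The main chain of type I collagen, Col1a1, measured 7291 and 12305 in the static and 7085 and 9488 in the stretched cultures, with a difference of -0.21 ± 0.17 and an unadjusted limma p of 0.258. Against this direction, Col5a3 measured 23.9 and 53.6 in the static and 33.97 and 92.03 in the stretched cultures (difference 0.63 ± 0.12, adjusted p = 0.161). In the same cultures the summed fibroblast markers went from 971 to 511 in animal 1 and from 2101 to 2012 in animal 2, with Lum at 26.9 and 110.5 in the static and 3.50 and 99.5 in the stretched cultures, and their part in these values was not tested.

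The matrix glycoproteins moved in both directions. Of 22, 8 were higher (36.4%) and 9 lower (40.9%) in both animals, 4 and 5 at an unadjusted p of at most 0.05. Postn, encoding periostin, a matricellular protein of healing and fibrotic tissue, measured 28.6 and 414 in the static and 106 and 777 in the stretched cultures (difference 1.38 ± 0.23, adjusted p = 0.148). Spp1, encoding osteopontin, measured 84.2 and 255 in the static and 294 and 470.5 in the stretched cultures (difference 1.34 ± 0.24, adjusted p = 0.150). Both were higher within each animal, although Postn had a higher static level in animal 2 than stretched level in animal 1. Fn1, encoding fibronectin, measured 15923 and 13884 in the static and 9934 and 9708 in the stretched cultures (difference -0.60 ± 0.17, adjusted p = 0.258), and Fbln5, an elastic fibre protein, 186 and 148 in the static and 143 and 125 in the stretched cultures (difference -0.31 ± 0.08). Among 19 detected proteases and inhibitors of 20, 8 were higher (42.1%) and 6 lower (31.6%) in both animals. Adamts5 and Adamts1, which cleave aggrecan and versican, measured 199 and 117 in the static and 101 and 56.7 in the stretched cultures, and 156 and 153 in the static and 54.7 and 97.1 in the stretched cultures, respectively, with differences of -0.996 ± 0.143 and -1.07 ± 0.19. Timp1, an inhibitor of matrix metalloproteinases, measured 361 and 617 in the static and 657 and 785 in the stretched cultures (difference 0.60 ± 0.16), and Mmp2, a gelatinase, 249.6 and 439 in the static and 365 and 499.8 in the stretched cultures (difference 0.37 ± 0.11).

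Integrins, the receptors that couple matrix to actin, included higher members that bind fibronectin and vitronectin. Of 16 detected of 17, 6 were higher (37.5%) and 5 lower (31.2%) in both animals, with 6 higher and 2 lower at an unadjusted p of at most 0.05. Itgb3 measured 18.5 and 56.6 in the static and 58.2 and 121 in the stretched cultures (difference 1.35 ± 0.18, adjusted p = 0.144). Itga5, the alpha chain of the fibronectin receptor, measured 548 and 499 in the static and 1006 and 709.6 in the stretched cultures (difference 0.69 ± 0.14, adjusted p = 0.167), and its partner Itgb1 1886 and 1228 in the static and 2634 and 1574 in the stretched cultures (difference 0.42 ± 0.10). Itga2, a chain of a collagen receptor, was near the limit of detection at 0.7 and 0.565 in the static and 2.27 and 1.97 in the stretched cultures. A count of 3 reads, taken as the limit of detection, corresponded to 0.148 to 0.242 normalized CPM in the WT libraries, and this limit covers counting error only. The laminin-binding chain Itga3 went the other way (-0.55 and -0.53 in the animals).

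Genes of fibrinolysis were mostly higher, and hyaluronan genes in part. Of 10 detected hyaluronan genes of 11, 5 were higher in both animals (50%), 0 were lower in both and 5 were not the same in both. The 2 at an unadjusted p of at most 0.05 were synthases, and Has1, at 6.65 and 4.84 in the static and 19.1 and 6.78 in the stretched cultures (difference 0.90 ± 0.30), accompanied Has2 above. Of 13 genes of fibrinolysis and coagulation, 9 were higher (69.2%) and 2 lower (15.4%) in both animals, 4 of them at an unadjusted p of at most 0.05 and higher (median 0.23). Procr, the endothelial protein C receptor, measured 86.3 and 39.6 in the static and 129.5 and 51.7 in the stretched cultures, and Plat, the tissue plasminogen activator, 47.8 and 72.6 in the static and 61.04 and 78.9 in the stretched cultures. Their differences were 0.48 ± 0.17 and 0.23 ± 0.09.

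Target genes of YAP and TAZ were lower more often than higher. All 22 were detected, and 12 were lower (54.5%) and 7 higher (31.8%) in both animals, 9 and 3 at an unadjusted p of at most 0.05, with a median of -0.14 that moved to -0.05 without the GC and length trend. The classical target Cyr61 measured 943 and 772 in the static and 821 and 656 in the stretched cultures (difference -0.22 ± 0.08, adjusted p = 0.326), and Ankrd1 93.9 and 39.2 in the static and 103 and 38.9 in the stretched cultures (difference 0.06 ± 0.11, adjusted p = 0.822). Crim1 and Ccdc80 measured 586 and 328 in the static and 398 and 246 in the stretched cultures, and 822 and 879 in the static and 498 and 708 in the stretched cultures, respectively. Together with Amotl2 above and Arhgef17, at 286 and 307 in the static and 155 and 253 in the stretched cultures, they were the 4 members with the smallest p, and all 4 were lower. Among the higher members, Nt5e (1.04 and 0.21), Foxf2 (1.01 and 0.20) and Nuak2 (0.96 and 0.28) differed mainly in animal 1.

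Contractile genes and targets of serum response factor were mostly lower. Of 20 detected of 21, 11 were lower in both animals (55.0%) and 1 was higher, 5 and 1 at an unadjusted p of at most 0.05, and the median of -0.18 moved to -0.10 without the GC and length trend. Acta2, encoding α-smooth muscle actin, a marker of myofibroblasts, measured 4342 and 2450.3 in the static and 3144 and 1932 in the stretched cultures (difference -0.40 ± 0.13, adjusted p = 0.275). Vcl, encoding vinculin of focal adhesions, measured 1012 and 1283 in the static and 635 and 974 in the stretched cultures (difference -0.53 ± 0.10, adjusted p = 0.162). Myh11, a smooth muscle myosin, measured 102 and 12.5 in the static and 36.5 and 7.52 in the stretched cultures (difference -1.06 ± 0.23). Acta1, the skeletal actin, was the member that was higher, at 190.2 and 27.9 in the static and 424 and 47.9 in the stretched cultures (difference 0.96 ± 0.13, adjusted p = 0.144). It made up most of the sum of the 5 detected skeletal muscle markers, which was 200.3 and 39.9 in static and 429.7 and 58.9 in stretched cultures, while the muscle markers Ckm, Myh4 and Tnnc2 were not among the genes tested.

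Caveolar genes were lower in most members. Of 9 detected of 10, 7 were lower (77.8%) and 2 higher (22.2%) in both animals, 6 and 1 at an unadjusted p of at most 0.05, with a median of -0.26. Sdpr, encoding cavin-2, which shapes caveolae, measured 221 and 216 in the static and 96.6 and 131 in the stretched cultures (difference -0.95 ± 0.14, adjusted p = 0.144). Prkcdbp, encoding cavin-3, measured 101 and 75.8 in the static and 65.2 and 57.8 in the stretched cultures (difference -0.51 ± 0.10), and Ptrf, encoding the coat protein cavin-1, 847 and 635 in the static and 513 and 535 in the stretched cultures (difference -0.48 ± 0.12). Cav1 itself, the gene whose loss defines the other genotype, measured 764 and 275 in the static and 569.9 and 247 in the stretched cultures (difference -0.29 ± 0.11, adjusted p = 0.318). Its level differed more between the animals than with stretch. The other detected caveolin, Cav2, went the opposite way. Cav2 was higher in both animals, also at an unadjusted p of at most 0.05 (limma adjusted p = 0.341). Of 13 detected mechanosensitive channel genes of 16, 3 were higher (23.1%) and 4 lower (30.8%) in both animals and 0 reached an unadjusted p of 0.05.

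**Figure D3:**
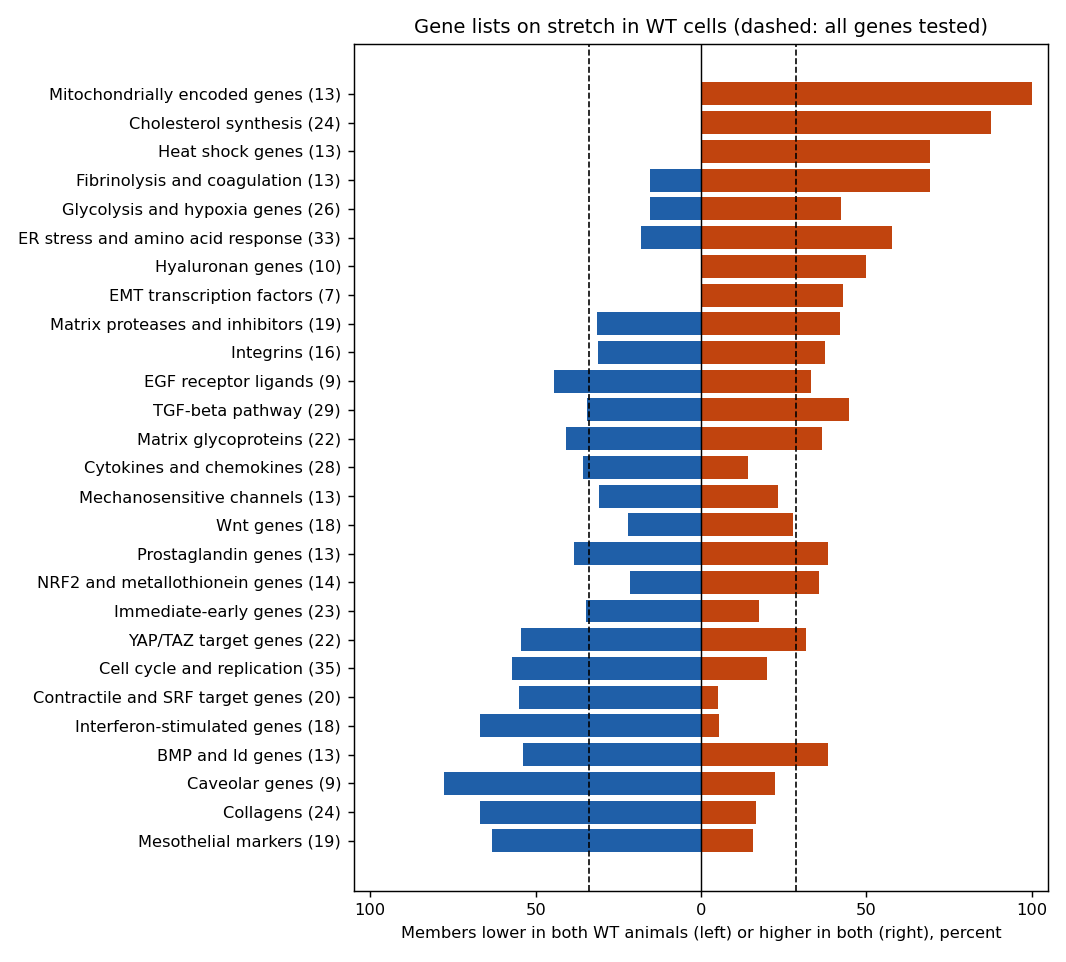
Percent of detected members (number in parentheses) that were higher in both WT animals (bars to the right) or lower in both (bars to the left) for each gene list, sorted by median difference, with dashed lines at 28.7% and 33.9%, the shares over all genes tested. Mitochondrially encoded, cholesterol and heat shock genes extend to the right, and mesothelial markers, collagens and caveolar genes to the left.

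Markers of the mesothelium were lower in most members. Of the 19 detected, 12 were lower (63.2%) and 3 higher (15.8%) in both animals, 7 and 1 at an unadjusted p of at most 0.05, and the median was -0.43 (-0.60 in animal 1 and -0.24 in animal 2), which lay between -0.46 and -0.32 under the 15 other settings. The sum of the markers was 4765 and 4541 in static and 3604 and 4167 in stretched cultures. Aldh1a1, a retinaldehyde dehydrogenase, measured 227 and 189 in the static and 61.3 and 118 in the stretched cultures (difference -1.27 ± 0.26, adjusted p = 0.170). Krt7, a keratin of simple epithelia, measured 328 and 525 in the static and 139.7 and 408 in the stretched cultures (difference -0.79 ± 0.20), and Cdh3, encoding P-cadherin of cell junctions, 211 and 228 in the static and 129.6 and 157 in the stretched cultures (difference -0.62 ± 0.12). The surface protein gene Upk3b measured 389 and 545 in the static and 202 and 441 in the stretched cultures (difference -0.62 ± 0.19, adjusted p = 0.272). Other defining markers did not reach an unadjusted p of 0.05: Msln, encoding mesothelin, measured 581 and 432 in the static and 311 and 425 in the stretched cultures, and the lineage factor Wt1 130.1 and 112 in the static and 133 and 94.9 in the stretched cultures. Pdpn, encoding the membrane glycoprotein podoplanin, was higher, at 580.3 and 481 in the static and 779 and 596 in the stretched cultures (difference 0.37 ± 0.10, adjusted p = 0.233), and so was Krt18 in both animals, at 173 and 181 in the static and 231 and 206 in the stretched cultures, with an unadjusted limma p of 0.177.

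Markers of endothelial cells, fibroblasts and adipocytes were lower more often than higher, but those of leukocytes and skeletal muscle were not. Of 5 detected skeletal muscle markers of 8, 1 was higher and 1 was lower in both animals. Of 16 leukocyte markers, 3 were higher and 1 was lower in both animals. Of 7 detected endothelial markers of 10, 5 were lower (71.4%) and 0 higher in both, 2 of them at an unadjusted p of at most 0.05, and their sum was 120.7 and 58.7 in static and 108.4 and 69.5 in stretched cultures. Of 10 detected fibroblast markers of 11, 5 were lower (50%) and 2 higher in both. All 3 detected adipocyte markers of 7 were lower in both, 2 of them at that p, with a sum of 46.03 and 38.5 in static and 32.9 and 34.6 in stretched cultures. The part of these cells in the lower mesothelial markers, collagens and other lists was not tested. The pericyte and fibroblast receptor Pdgfrb measured 37.2 and 204 in the static and 62.9 and 261 in the stretched cultures (difference 0.55 ± 0.14), and Cd34 46.9 and 24.5 in the static and 38.02 and 18.05 in the stretched cultures (difference -0.36 ± 0.11). They differed in opposite directions within the fibroblast list.

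Cytokine and chemokine genes gave a count near that of all genes. Of 28 detected of 30, 4 were higher (14.3%) and 10 lower (35.7%) in both animals, 1 and 3 at an unadjusted p of at most 0.05, near the 14.5% of all genes, and 14 were not the same in both. Il11, a profibrotic cytokine of the IL-6 family, measured 2.10 and 3.96 in the static and 8.78 and 8.13 in the stretched cultures (difference 1.27 ± 0.26, adjusted p = 0.170), and it was the member that was higher at that p. Il6 measured 1.47 and 2.50 in the static and 5.47 and 2.77 in the stretched cultures (difference 0.75 ± 0.46, adjusted p = 0.493), and in animal 2 its stretched culture was barely above the static one. The shared receptor chain Il6st, encoding gp130, measured 507 and 348 in the static and 284 and 258 in the stretched cultures (difference -0.63 ± 0.11, adjusted p = 0.148), and the interferon-induced chemokine Cxcl10 3.71 and 3.07 in the static and 1.04 and 1.23 in the stretched cultures (difference -1.04 ± 0.22). Interferon-stimulated genes had 12 of 18 detected members lower in both animals (66.7%) and 1 higher, 3 and 0 at an unadjusted p of at most 0.05, with a median of -0.21. Of these, Ifih1, a sensor of viral RNA, measured 15.2 and 13.97 in the static and 8.97 and 11.1 in the stretched cultures (difference -0.51 ± 0.17).

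Prostaglandin genes had no common direction. Of 13 detected of 14, 5 were higher (38.5%) and 5 lower in both animals, and of the 7 that act in synthesis 4 were higher and 3 lower. The 3 at an unadjusted p of at most 0.05 were all higher and all in synthesis. Ptgs2, the inducible cyclooxygenase COX-2, measured 885 and 530.1 in the static and 2221 and 806 in the stretched cultures (difference 0.96 ± 0.19, adjusted p = 0.167). Ptgs1, the constitutive cyclooxygenase, measured 489 and 401 in the static and 658 and 487 in the stretched cultures (difference 0.35 ± 0.09), and the phospholipase Pla2g4a, which frees arachidonic acid, 233 and 215 in the static and 289 and 243 in the stretched cultures (difference 0.24 ± 0.09). Hbegf, a ligand of the EGF receptor, measured 45.5 and 38.2 in the static and 88.6 and 48.9 in the stretched cultures (difference 0.65 ± 0.16), and Egfr 335 and 278 in the static and 254 and 242 in the stretched cultures (difference -0.30 ± 0.11), and of the 9 detected genes of 10 in that list 3 were higher (33.3%) and 4 lower (44.4%) in both animals. Among 23 immediate-early genes, 4 were higher (17.4%) and 8 lower (34.8%) in both animals, 2 and 4 at an unadjusted p of at most 0.05. Fos measured 22.9 and 33.8 in the static and 13.95 and 25.7 in the stretched cultures, and Egr1 97.4 and 183 in the static and 61.04 and 144 in the stretched cultures, with differences of -0.53 ± 0.15 and -0.50 ± 0.10, and Nr4a2 was higher at 5.74 and 15.4 in the static and 14.3 and 18.1 in the stretched cultures.

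Cholesterol genes gave one of the most uniform patterns. All 24 were detected, 21 were higher in both animals (87.5%) and 0 lower in both, and 12 reached an unadjusted p of at most 0.05, all of them higher, with a median of 0.26 (0.36 in animal 1 and 0.15 in animal 2). Idi1, which isomerizes isopentenyl diphosphate, measured 153 and 116 in the static and 269.6 and 168 in the stretched cultures (difference 0.67 ± 0.11, adjusted p = 0.148). Cyp51, the lanosterol demethylase, measured 266 and 226 in the static and 399.7 and 310.3 in the stretched cultures (difference 0.52 ± 0.09, adjusted p = 0.148), and Msmo1, a sterol methyl oxidase, 196 and 119 in the static and 313 and 161 in the stretched cultures (difference 0.55 ± 0.09). The differences were small, but in Idi1 and Cyp51 both stretched cultures exceeded both static ones. Hmgcs1, whose promoter window is printed above, measured 311 and 300.4 in the static and 397 and 338 in the stretched cultures. Among the 5 genes of uptake and regulation, Srebf2, the sterol-sensing factor itself, lay at -0.09 and 0.00 in the animals. Of the 16 genes of the list with a promoter window, 1 held the sterol element and 2, Msmo1 and Dhcr7, the AP-1 motif.

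Genes of protein folding were higher as well. All 14 chaperones of the endoplasmic reticulum (ER) were higher in both animals, 9 of them at an unadjusted p of at most 0.05, with a median of 0.23 (0.30 in animal 1 and 0.19 in animal 2). Hspa5, encoding the chaperone BiP, measured 1241 and 1173 in the static and 1466 and 1379.8 in the stretched cultures (difference 0.24 ± 0.09). Hsp90b1, encoding GRP94, measured 1584 and 1437 in the static and 2159.6 and 1730.3 in the stretched cultures (difference 0.36 ± 0.10), and the co-chaperone Dnajb9 43.8 and 35.3 in the static and 62.4 and 46.1 in the stretched cultures (difference 0.44 ± 0.10). Of 19 amino acid response genes, by contrast, 5 were higher (26.3%) and 6 lower (31.6%) in both animals, with Mthfd2 at 78.8 and 67.4 in the static and 108 and 81.5 in the stretched cultures and Sesn2 at 40.9 and 48.8 in the static and 32.3 and 36.6 in the stretched cultures in opposite directions. Heat shock genes had 9 of 13 members higher in both animals (69.2%) and 0 lower, 4 at an unadjusted p of at most 0.05, with Hsph1 at 132 and 137 in the static and 248 and 169.8 in the stretched cultures.

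All 13 mitochondrially encoded genes were higher in both animals, 11 at an unadjusted p of at most 0.05, with a median of 0.32, or 0.14 without the GC and length trend. They took 1.19% and 1.07% of reads in static and 1.53% and 1.28% in stretched cultures. mt-Co3, a subunit of cytochrome c oxidase, measured 474 and 149.8 in the static and 664 and 561 in the stretched cultures (difference 1.19 ± 0.35), and mt-Nd2 553 and 477 in the static and 861 and 589.7 in the stretched cultures (difference 0.47 ± 0.10). The libraries were made from polyadenylated RNA, and the animals differed in which mitochondrial genes stood out, with mt-Nd3, mt-Co2 and mt-Atp6 farthest in animal 1 and mt-Co3 in animal 2.

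Of 26 genes of glycolysis and hypoxia, 11 were higher (42.3%) and 4 lower (15.4%) in both animals, 6 and 3 at an unadjusted p of at most 0.05. Vegfa, the angiogenic growth factor, measured 169 and 136 in the static and 269 and 185 in the stretched cultures (difference 0.55 ± 0.09, adjusted p = 0.148), and Slc2a1, the glucose transporter GLUT1, 233 and 146 in the static and 334 and 179.6 in the stretched cultures (difference 0.41 ± 0.09). Adm, encoding adrenomedullin, another hypoxia-induced peptide, went the other way at 24.8 and 40.6 in the static and 12.2 and 19.03 in the stretched cultures (difference -1.01 ± 0.12, adjusted p = 0.144), as did Ndrg1 at 465 and 269.6 in the static and 335 and 214 in the stretched cultures. The median of the list was 0.26 in animal 1 and -0.00 in animal 2. NRF2 targets and metallothioneins had 5 of 14 members higher (35.7%) and 3 lower (21.4%) in both animals, and their medians of -0.42 in animal 1 and 0.20 in animal 2 were opposite. Mt2, a metallothionein, measured 100.5 and 233 in the static and 49.8 and 195 in the stretched cultures (difference -0.63 ± 0.18).

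Cell cycle genes divided by phase. Of 19 mitotic genes, 15 were lower in both animals (78.9%) and 1 was higher, 5 and 0 at an unadjusted p of at most 0.05, with a median of -0.18 (-0.35 in animal 1 and -0.07 in animal 2). Cdc20, an activator of the anaphase-promoting complex, measured 86.3 and 86.1 in the static and 53.01 and 71.2 in the stretched cultures (difference -0.48 ± 0.14), and the checkpoint kinase Bub1b 65.5 and 66.4 in the static and 45.6 and 55.7 in the stretched cultures (difference -0.38 ± 0.10). Of 16 replication genes, 6 were higher (37.5%) and 5 lower (31.2%) in both animals, and 2 reached an unadjusted p of at most 0.05, both higher.

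**Figure D4:**
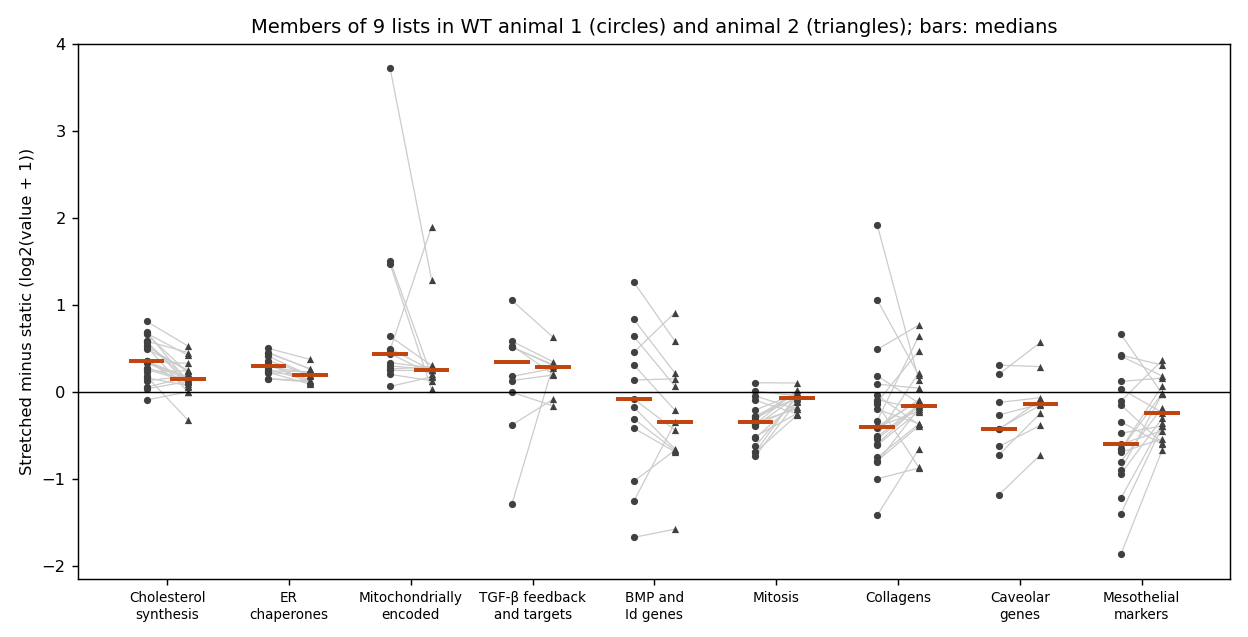
Stretched minus static on the log2(value + 1) scale for each detected member of 9 lists, with circles for WT animal 1, triangles for WT animal 2, lines joining a gene and bars at the medians. Cholesterol genes, ER chaperones and mitochondrially encoded genes lie above 0 in nearly all members, and mitotic genes, collagens, caveolar genes and mesothelial markers mostly below, farther from 0 in animal 1.

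The same contrast in the Cav-1- animals used other animals and libraries. For genes selected from the WT libraries alone, the WT direction could thus be looked up where it had not been chosen. In the Cav-1- animals limma called 1 gene, Aldh1a3, at an adjusted p under 0.05 (0.00732%). When genes were selected from the 4 WT libraries alone at an unadjusted p of at most 0.05, 661 were higher, and of these 483 (73.1%) were higher in both Cav-1- animals against 30.0% of all genes, while 5.90% were lower in both. Of 1009 lower genes, 701 (69.5%) were lower in both Cav-1- animals against 30.9% of all genes, and 6.14% higher in both. The stretched libraries were the deeper ones in both genotypes. Across genes, the differences of WT animal 1 correlated with those of the Cav-1- animals at 0.437 and 0.228, and those of WT animal 2 at 0.197 and 0.375, values on either side of the 0.296 between the WT animals. Animals with the same number in the labels had the higher of these values, and what the number marks across genotypes is not given.

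Of the 24 genes, 10 of the 12 higher and 6 of the 12 lower ones had the same direction in both Cav-1- animals, but the count of lower genes depends on their level there. These genes, and the other single genes named in this paragraph, were chosen with p-values of the fit of all 8 libraries. That p is smaller where the 2 Cav-1- differences are alike, so these counts are not an independent look-up. Gm21451 had 0 reads, and Eln, Pdlim3, 8430408G22Rik and Kcnc4 had at most 15 reads in every Cav-1- library, so that a lower value could scarcely be measured. In Sfrp2 and Megf6 this held for animal 1, with at most 3 reads. Kcnc4, with at most 4 reads in every Cav-1- library, and Megf6 were nevertheless among the 6, so their shared direction rests on few reads. Igfbp2, Cemip, Bmp4 and Hmcn1, the lower genes with at least 62 reads in every Cav-1- library, were lower in both animals. Jag1 measured 59.6 and 27.7 in the static and 225 and 122 in the stretched cultures of the Cav-1- animals, a difference of 1.90 and 2.10 in the animals. Aldh1a3 differed by 3.09 and 3.05 there against 2.04 and 1.58 in WT. Igfbp2 (-2.18 and -1.24) and Cemip (-3.12 and -1.61) were also lower in both. The test of the difference between the genotypes passed an adjusted p of 0.05 for no gene (limma, 0.0%), and 581 genes reached an unadjusted p of at most 0.05 (4.25%), while DESeq2 called 6 by adjusted p. Among the 581, Tgm2 had an interaction (WT minus Cav-1-) of -0.65 ± 0.11 (adjusted p = 0.947), with -0.10 and -0.05 in the Cav-1- animals, and Vcl one of -0.53 ± 0.14 with 0.04 and -0.04. The ER chaperones were higher in both Cav-1- animals in 13 of 14 genes, the cholesterol genes in 12 of 24 and the mitochondrially encoded genes in 5 of 13, and these shares were not tested against those in WT.

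**Figure D5:**
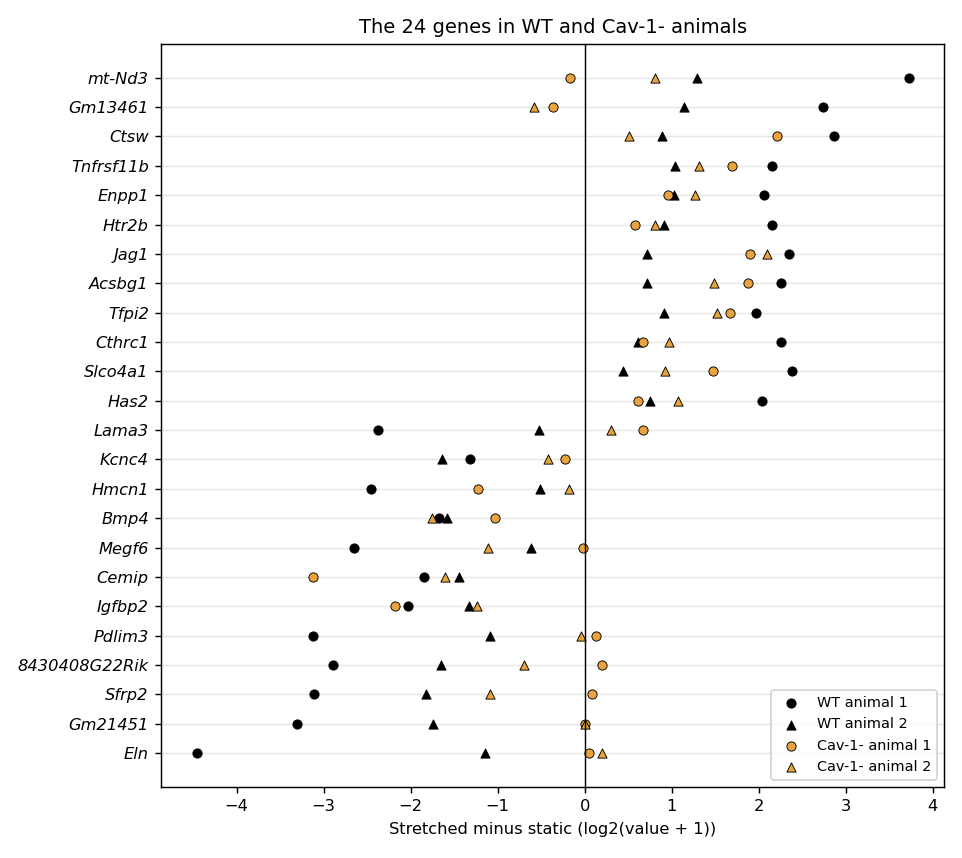
Stretched minus static on the log2(value + 1) scale of the 24 genes in WT (black) and Cav-1- (orange) animals, with circles for animal 1 and triangles for animal 2 of each genotype. The higher genes except mt-Nd3 and Gm13461 lie above 0 in all 4 animals, and 6 of the lower genes lie below 0 in all 4. Kcnc4 and Megf6 are among these 6, although Kcnc4 had at most 4 reads in every Cav-1- library and Megf6 at most 3 in animal 1. Gm21451, Eln, Pdlim3 and 8430408G22Rik were at or near 0 reads in the Cav-1- libraries and could scarcely move down there.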

How the data were processed

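Polyadenylated RNA of 8 MC cultures was sequenced as single reads. The authors deposited a signal, TMM-normalized CPM (edgeR's scaling of RSEM estimates), for 13687 genes, with low genes left out. Per the paper and the submitters' processing notes, Cutadapt removed adapters beforehand and GRCm38 was the build of the transcriptome. Values in each library are whole multiples of 1 constant (100% whole within 0.1), so whole reads were recovered. The total per library is the depth of the table, not of the sequencing run, and floors of 3 reads cover counting error only.

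Genes of at least 1 in at least 2 libraries were tested (13665, 22 removed). log2(value + 1) was fitted with limma 3.58.1 (R 4.3.3, trended variance) over all 8 libraries with a term for each animal and a stretch term for each genotype (2 residual and 4.37 prior degrees of freedom), with Benjamini-Hochberg adjustment. The labels name the animal of each culture, which pairs the cultures. The paper states a larger n for the mouse cultures than the labels give, and the labelled cultures were used. Deviations from the group means correlated at 0.703 in WT and 0.850 in Cav-1-. Alternatives were edgeR 4.0.16 and DESeq2 1.42.0 on recovered reads, other pseudocounts, filters and scalings, thinning, GC and length correction, fits without the animal terms and leaving out an animal. The limma fit was also run on simulated data with the same stretch effect in both WT animals. It therefore does not show how the fit does on the uneven responses seen here.

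Named genes were the 12 largest differences in each direction that met the stated rule, up to 4 members of each list by smallest p, and the study's readouts, and 17 further genes were named after their values were seen. Other list members given only by their differences or direction in the animals, such as Tgfb2, Itga3 and Cav2, stand outside these rules. The counts and checks of named genes do not cover them. The members and gene lists were chosen with earlier results of these data known, no list was tested as a set, and list shares are read against those over all genes. Positions are from GENCODE M21, in which 13597 identifiers were found, and promoter windows from RefSeq. Some genes are not reported here.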

Additional observations from a re-analysis of the deposited data

Results flagged for a closer look

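In 8 of the named genes both WT animals moved one way on stretch and both Cav-1- animals the other. The difference of the stretch terms, WT minus Cav-1-, was 2.41 for the pseudogene Gm13461, -2.92 for Eln, -1.93 for Lama3, 1.88 for mt-Co3, -0.86 for Parp14, 0.83 for Cd53, -0.76 for Vwf and 0.36 for Gsr. Their unadjusted limma p lay between 0.00219 for Gm13461 and 0.0302 for Gsr, and none passed the interaction test after adjustment over all genes. Eln measured 0.247 and 0.206 in the static and 0.291 and 0.383 in the stretched cultures of the Cav-1- animals, so that elastin reads were close to the limit of detection there, and its Cav-1- differences of 0.05 and 0.20 were small. The pooled SE of its interaction is lower for this. Cd53, a leukocyte marker, measured 89.2 and 19.7 in the static and 60.4 and 19.04 in the stretched cultures of the Cav-1- animals, and Vwf, an endothelial one, 10.6 and 1.95 in the static and 12.5 and 2.24 in the stretched cultures. Parp14, an interferon-stimulated gene, differed by -0.87 and -0.31 in the WT and 0.24 and 0.31 in the Cav-1- animals, and Gsr, encoding glutathione reductase, by 0.28 and 0.17 and -0.23 and -0.04. The mitochondrial transcript mt-Co3 differed by 0.49 and 1.90 and -0.21 and -1.17. With 2 animals a genotype, such opposite movement was looked for in every named gene.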

How the results depend on the processing

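The count of 0 genes at an adjusted p under 0.05 remained 0 under each alternative except DESeq2, which called 158, and the removal of a WT animal, which gave 0 to 300 calls over all animals left out: 2 without WT animal 1 and 300 without WT animal 2, where the remaining WT pair is assumed to vary like the Cav-1- pairs. At an unadjusted p of at most 0.05, in place of an adjusted one, 1979 were counted, against 935 with DESeq2, 310 with limma without the replicate block, 303 with edgeR without it, and 655 to 1681 with an animal left out, apart from 2319 without WT animal 2. All 310 genes found without the block were also among the 1979. The interaction had 6 adjusted calls with DESeq2, 0 to 36 with an animal left out, and at an unadjusted p 222 with DESeq2, 66 without the block by either limma or edgeR, and 301 to 1142 with an animal left out, against 581. Over genes with a mean of at least 5, correlations between animals were 0.321 for WT 1 with Cav-1- 2, 0.505 for WT 2 with Cav-1- 2 and 0.462 between the Cav-1- animals. Of 2766 values of named genes under the alternatives, 2764 kept their direction. Ankrd1 turned to -0.0082 without WT animal 1 (0.132 without WT animal 2) and Wt1 to 0.035 without WT animal 2 (-0.237 without WT animal 1). The causes were not tested. Levels below 3 reads, 0.148 to 0.242 normalized CPM in WT, were not detectable at this depth.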
